A study of Mus musculus with 15 samples.

Results

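In mouse fibroblasts described as non-activated, 8310 regions bound by the zinc finger protein Miz1 were set against the regions occupied by RNA polymerase II (RNAPII) in the same cell line. These Miz1 peaks are 8310 of the 397350 peaks in the 20 peak lists of the series. Of them, 8298 lie on chromosomes 1 to 19 and X and were sorted by position, and 12 on unplaced contigs were left out. A Miz1 peak that shared at least 1 bp with an RNAPII peak of either of 2 lists, narrow or broad, was taken as inside RNAPII. The others were divided into RNAPII-free promoter sites, within 1000 bp of an annotated transcription start site (TSS), and RNAPII-free distal sites. The classes held 2979, 320 and 4999 peaks.

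The series followed chromatin binding of Myc and RNAPII by chromatin immunoprecipitation with sequencing (ChIP-seq) in 3T9-MycER cells, with Miz1 maps beside it. These cells are 1 immortalised fibroblast line from mouse embryos at stage E13.5, with both c-myc alleles floxed, infected in culture with a construct for MycER, a Myc protein fused to a hormone receptor domain that 4-hydroxytamoxifen (OHT) switches on. The RNAPII library used here is the 0 min time, without OHT (antibody N20), and the Miz1 library (antibody 10E2, made in house) came from the same cells in the state that the study's design text calls non-activated. Later RNAPII libraries came from the same cells after 400 nM OHT for 10, 20 or 30 min, 2 h or 4 h, and a Miz1 library from B cells taken with B220 beads from the spleen of wild-type C57BL/6 mice aged 6 to 8 weeks served for comparison. The floxed alleles and the MycER construct are shared by all fibroblast samples, and nothing in the labels says that the alleles had been recombined. Each group held 1 library, so differences could not be checked against replicates and no p-value is given between groups.

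Miz1, encoded by Zbtb17, binds DNA through an array of zinc fingers and is known as an activator of some genes, among them genes of vesicle traffic and autophagy, and as a partner through which Myc represses others, such as the cell cycle inhibitors Cdkn1a and Cdkn2b. RNAPII is recruited to promoters, commonly pauses just downstream of the start site, and then moves through the gene body. A promoter peak therefore marks polymerase at the start of a gene, and peaks along the body mark polymerase that has moved on.

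The Miz1 library held 10164509 tags against 16137288 in its control, and the RNAPII library held 15276996 tags. RNAPII occupied 18877 narrow peaks with a median length of 2616 bp and 17898 broad peaks with a median length of 823.5 bp, so the list called narrow held the longer peaks here. Miz1 peaks had a median length of 302 bp, and both RNAPII lists together covered 74.87 Mb, or 2.84% of the genome. The Miz1 list had been called at a looser p cutoff (0.01) than the RNAPII lists (1e-08), and only 4029 of the 8298 Miz1 peaks had q at or below 0.01. RNAPII was found at the promoters of 14 of 16 fibroblast marker genes, among them Col1a1, Col1a2, Fn1, Vim and Pdgfrb. Thy1 and Postn lacked it. In the wider list of matrix and mesenchymal genes used below, RNAPII was at 19 of 26. It was found at 1 of 8 B cell markers (Ebf1), 1 of 7 T cell or myeloid markers (Lck), 1 of 4 neuron markers (Tubb3) and 0 of 5 hepatocyte markers, and of the genes in these 5 short lists only Tubb3 had Miz1.

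The strongest Miz1 peaks lay on short stretches of DNA just upstream of start sites. The sequences of 8 such promoters are shown because 6 of them are among the 12 genes with the highest Miz1 fold enrichment at RNAPII-positive promoters and 2, Vamp4 and Ambra1, belong to the vesicle and autophagy genes that Miz1 is known for. Each is 91 bases of the plus or minus strand of mm9 (NCBIM37) centred on the Miz1 summit, written on the strand of the gene, and capitals mark the words ATCG, TCGA and CTCGG on either strand. The regions are chr10:119645730-119645820 (plus) for Tmbim4, chr4:151699790-151699880 (plus) for Rpl22, chr15:76456517-76456607 (minus) for Vps28, chr11:98543773-98543863 (plus) for Psmd3, chr2:142888693-142888783 (plus) for Snrpb2, chr7:19967172-19967262 (plus) for Ercc2, chr1:164500607-164500697 (plus) for Vamp4 and chr2:91570208-91570298 (plus) for Ambra1.
Tmbim4: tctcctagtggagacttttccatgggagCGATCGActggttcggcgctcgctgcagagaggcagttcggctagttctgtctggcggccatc
Rpl22: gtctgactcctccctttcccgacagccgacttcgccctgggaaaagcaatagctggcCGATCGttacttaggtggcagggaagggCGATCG
Vps28: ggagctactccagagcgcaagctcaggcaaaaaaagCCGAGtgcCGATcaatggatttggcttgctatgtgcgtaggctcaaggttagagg
Psmd3: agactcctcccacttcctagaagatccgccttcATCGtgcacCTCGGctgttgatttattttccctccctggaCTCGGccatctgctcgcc
Snrpb2: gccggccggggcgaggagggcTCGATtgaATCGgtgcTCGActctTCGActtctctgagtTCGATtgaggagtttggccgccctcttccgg
Ercc2: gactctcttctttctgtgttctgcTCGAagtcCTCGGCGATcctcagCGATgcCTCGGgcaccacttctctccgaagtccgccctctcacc
Vamp4: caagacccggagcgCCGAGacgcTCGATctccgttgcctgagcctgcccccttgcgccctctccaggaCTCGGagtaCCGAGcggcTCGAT
Ambra1: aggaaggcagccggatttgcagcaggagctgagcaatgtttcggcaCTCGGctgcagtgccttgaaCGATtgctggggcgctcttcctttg
All 8 hold ATCG or its reverse complement, and 3 of them (Vps28, Psmd3 and Ambra1) hold CTCGG without TCGA. The words were chosen after the summit sequences had been seen, so their presence here is not an independent result. Tmbim4, Rpl22, Vps28 and Psmd3 lead the 12 by Miz1 fold, while Snrpb2 and Ercc2 were picked from the rest. The summits lay 31 bp (Tmbim4), 105 bp (Vps28), 50 bp (Psmd3), 37 bp (Snrpb2), 142 bp (Ercc2) and 38 bp (Ambra1) upstream of the start site, and 6 bp downstream of it at Vamp4. The Tmbim4 summit lies in an intron of an annotated transcript, those of Vps28 and Vamp4 in an exon, and the others outside annotated transcripts.

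The RNAPII-free promoters printed next carried other sequences at weaker Miz1 peaks. A pair of strong Miz1 peaks of that class is shown from the plus strand in the same way, with the 9-base GA repeat GAGAGAGAG and the AP-1 word TGANTCA also in capitals. They lie in an intron of Pik3r6 447 bp downstream of a start (chr11:68350104-68350194, fold 83.61) and in an exon near the noncoding gene 9130213A22Rik (chr11:68937201-68937291, fold 39.1).
Pik3r6: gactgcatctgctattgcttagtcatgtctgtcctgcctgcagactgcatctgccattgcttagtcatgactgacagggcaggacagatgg
9130213A22Rik: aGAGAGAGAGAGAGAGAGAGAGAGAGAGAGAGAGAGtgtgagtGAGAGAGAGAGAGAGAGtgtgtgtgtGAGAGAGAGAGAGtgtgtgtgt
Among coding genes without RNAPII at any of their coding starts, the highest Miz1 folds were at Usp54 (chr14:21427224-21427314, minus, fold 21.43), Cand2 (chr6:115724290-115724380, plus, fold 20.11), Gm17380 (chr8:108097383-108097473, plus, fold 19.28) and Ifi27l1 (chr12:104672285-104672375, plus, fold 18.62), on the strand of the gene.
Usp54: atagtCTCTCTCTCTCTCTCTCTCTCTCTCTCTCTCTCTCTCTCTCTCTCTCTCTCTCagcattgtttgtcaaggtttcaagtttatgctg
Cand2: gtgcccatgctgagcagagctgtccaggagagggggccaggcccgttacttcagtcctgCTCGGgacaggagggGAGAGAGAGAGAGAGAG
Gm17380: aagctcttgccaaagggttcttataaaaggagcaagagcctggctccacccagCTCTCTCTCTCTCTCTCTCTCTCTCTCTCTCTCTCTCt
Ifi27l1: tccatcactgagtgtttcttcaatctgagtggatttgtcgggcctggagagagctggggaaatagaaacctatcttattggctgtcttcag
A run of GA or CT repeats reached into the window at 3 of these 4 promoters and at 9130213A22Rik. Pik3r6 and Ifi27l1 held none of the words, and ATCG was in none of these printed RNAPII-free windows. In wider windows of 200 bp around all 320 RNAPII-free promoter summits, ATCG was in 63 (19.7%). The printed RNAPII-free sites have Miz1 folds far below those of the RNAPII promoters printed before, so strength and RNAPII differ together between the sets.

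Of the Miz1 peaks away from promoters but inside RNAPII, 4 of the strongest are shown because they carry different words. They lie outside annotated transcripts, 2668 bp upstream of Sos1 (chr17:80882416-80882506, fold 111.4), 15411 bp upstream of Vav2 (chr2:27297919-27298009, fold 83.09), 5511 bp upstream of Zfp362 (chr4:128488755-128488845, fold 80.34) and 3778 bp upstream of Gm14162 (chr2:152567596-152567686, fold 58.1), all on the plus strand, with capitals as before.
Sos1 upstream site: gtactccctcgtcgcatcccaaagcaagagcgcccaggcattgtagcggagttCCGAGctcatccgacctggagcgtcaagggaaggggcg
Vav2 upstream site: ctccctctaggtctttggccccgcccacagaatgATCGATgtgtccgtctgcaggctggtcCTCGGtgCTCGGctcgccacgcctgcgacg
Zfp362 upstream site: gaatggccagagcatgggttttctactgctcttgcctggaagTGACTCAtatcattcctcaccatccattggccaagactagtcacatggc
Gm14162 upstream site: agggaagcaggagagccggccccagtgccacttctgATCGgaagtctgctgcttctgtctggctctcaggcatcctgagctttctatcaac
The Vav2 site carries the palindrome ATCGAT, which is counted below, and the Zfp362 site carries an AP-1 word instead. Among the RNAPII-free distal sites, the strongest on chromosome 12 (chr12:105305817-105305907, 12997 bp upstream of the pseudogene Serpina4-ps1, fold 75.23) and one in an intron of Thsd4 on chromosome 9 (chr9:59929933-59930023, fold 70.76) are printed from the plus strand.
chromosome 12 distal site: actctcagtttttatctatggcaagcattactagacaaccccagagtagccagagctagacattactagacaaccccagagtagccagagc
chromosome 9 distal site: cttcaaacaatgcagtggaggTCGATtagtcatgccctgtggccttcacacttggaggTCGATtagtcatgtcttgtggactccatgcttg
The first holds none of the words. The Thsd4 site holds TCGAT in duplicate, and a longer stretch around it is repeated within the window.

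The larger share of Miz1 peaks lay outside RNAPII. RNAPII-free distal sites made up 60.2% of the 8298 peaks (95% Wilson interval 59.2 to 61.3), sites inside RNAPII 35.9% (34.9 to 36.9) and RNAPII-free promoters 3.86% (3.46 to 4.29). These intervals cover counting error only. Promoter windows of all annotated transcripts, with or without RNAPII, covered 4.02% of the genome. The share of Miz1 peaks at RNAPII-free promoters was thus near that cover. Of the sites inside RNAPII, 1753 lay at promoters and 1226 did not, and 2149 were under both RNAPII lists, 802 under the narrow list alone and 28 under the broad list alone.

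Sites inside RNAPII were the stronger ones by the authors' fold enrichment, although the ranges overlapped widely. The median fold was 6.70 inside RNAPII, 5.96 at RNAPII-free promoters and 5.51 at RNAPII-free distal sites, and the highest values were 293.5, 83.61 and 75.23. Within RNAPII, promoter sites had a median of 7.26 and the others 6.43. A q at or below 0.01 was reached by 64.4% of the sites inside RNAPII, 50.3% of the RNAPII-free promoter sites and 39.0% of the distal sites.

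When the Miz1 list was cut into deciles by p, the share inside RNAPII was 14.8% in the weakest decile and 53.3% in the strongest, while the share at distal sites was 81.2% and 43.0%. RNAPII-free promoters stayed between 3.37% and 4.46% in all 10 deciles. Among the 100 peaks of highest fold, 93 were inside RNAPII, 89 of them at promoters, 6 were distal and 1 was at an RNAPII-free promoter. The division of Miz1 sites thus moved with where the Miz1 list was cut, and with q at or below 0.01 the share inside RNAPII was 47.6% and the distal share 48.4%. Among Miz1 peaks above the median fold, 48.7% were inside RNAPII and 47.2% distal, so the order of the classes turned.

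**Figure D1:**
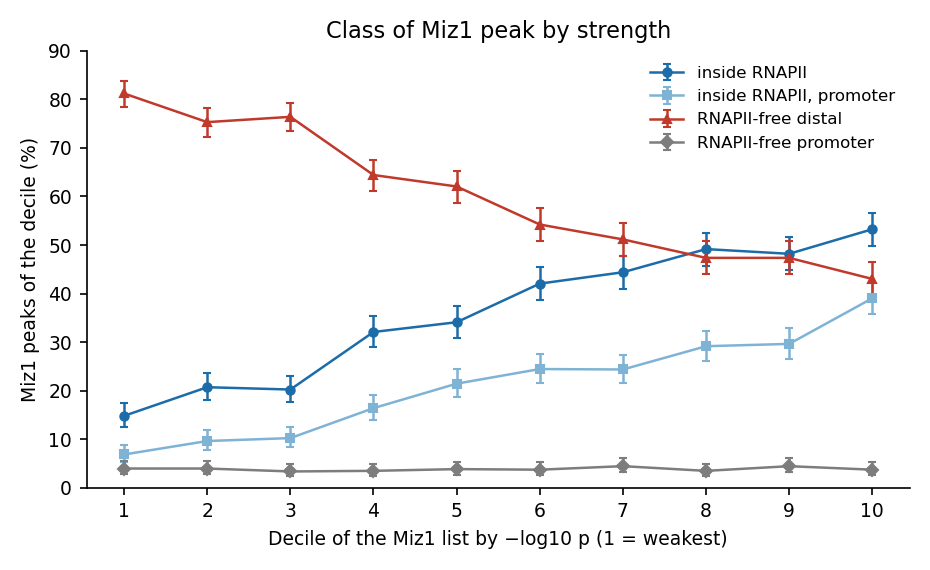
Share of Miz1 peaks (%) in each class by decile of the list, from the weakest (1) to the strongest (10) −log10 p, with 95% Wilson intervals. Sites inside RNAPII go from 14.8% to 53.3% and RNAPII-free distal sites from 81.2% to 43.0%, while RNAPII-free promoter sites stay below 4.5% in every decile.

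The classes differed in where they lay around genes. The median distance from summit to the nearest TSS was 720 bp inside RNAPII, 474.5 bp at RNAPII-free promoters, 6630 bp at RNAPII sites that were not promoters and 24417 bp at RNAPII-free distal sites. Of the distal sites, 57.7% lay outside annotated transcripts, 40.1% in introns and 2.22% in exons, and 32.3% lay over 50000 bp from any TSS. The RNAPII-free promoters served protein-coding transcripts in 189 of 320 cases (59.1%) and long noncoding transcripts in 97 (30.3%). At promoters with RNAPII, 1617 of 1753 (92.2%) served coding transcripts and 117 long noncoding ones.

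Miz1 summits sat close to those of RNAPII, on the scale of the RNAPII peaks. The median distance was 430 bp to the summit of the overlapping narrow peak and 261 bp to that of the broad peak, and 54.0% of the narrow and 73.5% of the broad pairs were within 500 bp. Outside promoters the medians were 753 bp and 280.5 bp. The length of the overlapped peaks, with medians of 3579 bp and 1280 bp, limits these distances. For these distances, lengths and folds, the overlapping RNAPII peak of highest fold was taken for each Miz1 peak. An RNAPII peak with several Miz1 peaks thus counts more than once. The peaks so taken were strong ones. Their median fold was 26.77 against 12.49 for all narrow peaks, and 23.45 against 13.25 for all broad peaks. They were also longer than the median narrow and broad peak, and a longer peak has more room for an overlap.

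Seen from RNAPII, 2497 of the 18877 narrow peaks (13.2%) and 1988 of the 17898 broad peaks (11.1%) held a Miz1 peak. From the weakest to the strongest quintile of narrow peaks by RNAPII fold, the share was 3.55%, 6.94%, 14.0%, 17.9% and 23.7%. For the broad peaks it was 3.55%, 5.67%, 11.1%, 15.5% and 19.8%. Miz1 was thus called more often at each step of RNAPII strength in both lists. Peak length differed too, with medians of 2407 bp in the weakest and 3570 bp in the strongest narrow quintile. For broad peaks these medians were 472 and 1378 bp. The part of length in these shares was not tested.

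Among 22219 coding genes, Miz1 was at the promoter of 1833 (8.25%) and RNAPII at the promoter of 10581 (47.6%). Both were at 1703 genes, so 92.9% of the Miz1 genes had RNAPII. Miz1 was at 16.1% of RNAPII-positive genes (95% Wilson interval 15.4 to 16.8) and at 130 of the 11638 RNAPII-free genes, or 1.12% (0.942 to 1.33). The promoter RNAPII peak had a median narrow-list fold of 32.56 at genes with Miz1 and of 28.83 at the 8878 genes with RNAPII only, with interquartile ranges of 21.39 to 48.63 and 18.6 to 41.97, so the groups largely overlapped.

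By quintiles of promoter RNAPII fold, Miz1 was at 11.9%, 15.1%, 15.3%, 16.5% and 21.5% of the genes. This range is narrower than that over single RNAPII peaks. From the weakest to the strongest quintile of Miz1 genes by Miz1 fold, the share with RNAPII was 86.4%, 94.0%, 93.2%, 94.0% and 97.0%. Stronger Miz1 peaks also lay nearer the start site, with median distances of 334, 303, 293, 245.5 and 130 bp, and 54.2% of the summits were upstream of it in the weakest quintile against 70.8% in the strongest.

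**Figure D2:**
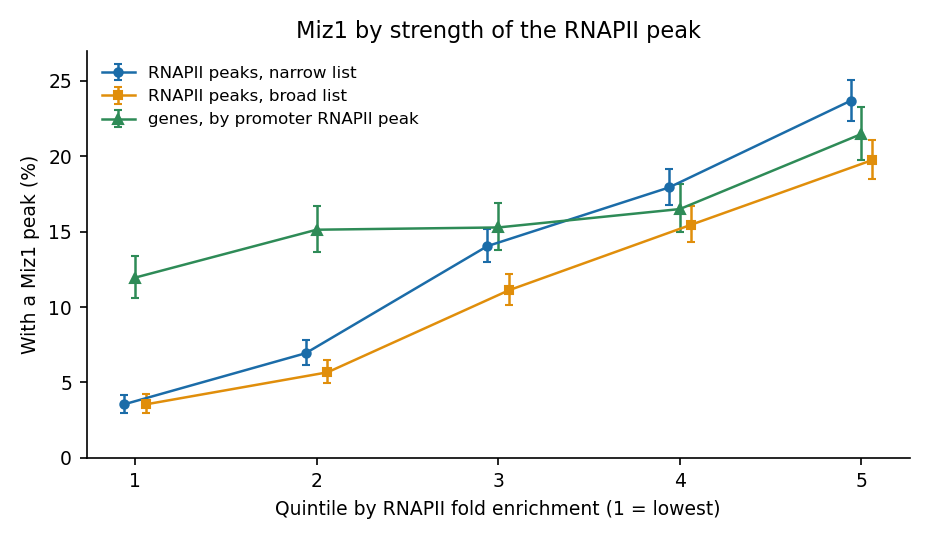
Share (%) of RNAPII peaks, and of RNAPII-positive coding genes, with a Miz1 peak, by quintile of RNAPII fold enrichment (1 is the lowest), with 95% Wilson intervals. Narrow peaks go from 3.55% to 23.7%, broad peaks from 3.55% to 19.8%, and genes from 11.9% to 21.5%.

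The 12 genes with the highest Miz1 fold and RNAPII had folds from 205 to 293.5. Tmbim4, which encodes a membrane protein of the Golgi that protects from cell death, was first with a Miz1 fold of 293.5, yet its RNAPII peak was weak, with a narrow fold of 8.65 and no broad peak. Rpl22, a protein of the large ribosomal subunit, had a Miz1 fold of 273.5 and an RNAPII fold of 40.96. Vps28, a subunit of the ESCRT-I complex that sorts cargo into endosomal vesicles, had 272.6 and 24.1, and Psmd3, a subunit of the regulatory particle of the proteasome, had 268.9 and 36.29.

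A Miz1 peak of fold 245.8 lay between Dctn5, a dynactin subunit, and Palb2, the partner of BRCA2 in DNA repair, which start in opposite directions, so these 2 genes share its values and the RNAPII fold of 37.18. Znhit3, a factor of small nucleolar particle assembly, had a Miz1 fold of 242.1 and an RNAPII fold of 20.18. Snrpb2, a protein of the U2 spliceosomal particle, had 236.1 and 18.17, and Vps72, a subunit of complexes that place the histone H2A.Z, had 224.3 and 21.23. The order by Miz1 fold is not the order by RNAPII fold within these genes.

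Ercc2, the XPD helicase of the general transcription and repair factor TFIIH, had a Miz1 fold of 217.5 with a narrow RNAPII fold of 9.61 and no broad peak. Klhdc10, a kelch-domain protein, had 209.8 and 24.74, and Dph1, an enzyme of diphthamide synthesis, had 205 and 9.17. All 12 of these genes also had a Miz1 peak in B cells, with folds from 66.65 at Vps28 to 141.8 at Tmbim4. B cell Miz1 was at 31.1% of all 1703 genes with Miz1 and RNAPII. Myc was at 11 of the 12 promoters at 0 min, Znhit3 being the exception, and at 95.5% of all 1703.

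The RNAPII-free genes with Miz1 had lower Miz1 folds. Usp54, a member of the ubiquitin-specific protease family, had 21.43, Cand2, a relative of the cullin exchange factor Cand1, had 20.11, and the predicted gene Gm17380 had 19.28. Ifi27l1, a member of an interferon-inducible family, had 18.62, and Ang and Rnase4, ribonuclease genes that share a promoter and its 1 Miz1 peak, had 16.39. Heca had 14.9, Bend5 14.15, and Hoxa6, a homeobox gene, and Slc12a5, a potassium chloride cotransporter of neurons, both 13.41. Of these 10 genes, 5 had Miz1 in B cells, 4 had Myc at 0 min (Ang and Rnase4 through the same peak), and Heca alone had RNAPII at 4 h. Over all 130 such genes these shares were 7.69%, 34.6% and 11.5%.

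RNAPII was strong at many promoters where no Miz1 peak was called. The highest promoter folds without Miz1 were 202.3 at 1110005A03Rik and Jmjd6, 193.8 at Gtf3c6, 193.2 at Tex14, 172.2 at Actb and Fbxl18, 164.1 at Cyr61 and 160.5 at Btg1. Actb encodes cytoplasmic actin and Cyr61 a matrix protein induced by serum. Long RNAPII peaks span several genes here, and the peak of 202.3 is shared by 1110005A03Rik, Jmjd6 and the Miz1 gene Srsf2, while Actb and Fbxl18 share another, so a fold cannot be given to 1 gene of such a group.

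Miz1 had no peak at Zbtb17, its own gene, which had an RNAPII fold of 15.37, nor at Ncl and Npm1, which encode the nucleolar proteins nucleolin and nucleophosmin and had RNAPII folds of 105.9 and 124.2. Cdkn1a, the gene of the CDK inhibitor p21, had a Miz1 fold of 4.47 at 832 bp downstream of the nearest start site and an RNAPII fold of 21.51. Cdkn2b, the gene of the CDK inhibitor p15, had a Miz1 fold of 6.43 at 105 bp downstream and an RNAPII fold of 40.08. Both Miz1 values lie below the median of 7.45 over the 1703 genes with Miz1 and RNAPII, and neither gene had Miz1 in B cells. Their −log10 p values were 3.31 and 5.65, below and above the median of 5.31 over the whole Miz1 list. Vamp4, a SNARE of the trans-Golgi, and Ambra1, an activator of autophagy, had Miz1 folds of 131.1 and 168.3 with RNAPII folds of 25.44 and 28.83.

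Gene lists were compared by how many RNAPII-positive members had Miz1, beside the 16.1% over all such genes. Splicing, proteasome, cell cycle, actin, glycolysis and some smaller lists lay above it. Of splicing factors 12 of 42 had Miz1, with a median Miz1 fold of 7.31. The highest were Snrpa1, a U2 particle protein, at 132.6, Srsf1 at 24.38 and Srsf2, both splicing activators of the SR family, at 11.92. Of proteasome genes 9 of 34 had it, led by Psmd3, Psma1 at 191.4 and Psmb3 at 31.36, with a median of 8.94.

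Of cell cycle and replication genes 10 of 35 had Miz1, led by the mitotic kinase gene Aurka at 154.2, the replicative helicase gene Mcm7 at 25.71 and the cyclin gene Ccne1 at 7.45. CDK inhibitors had it at 3 of 5, namely Cdkn2a at 10.93, Cdkn2b and Cdkn1a. Actin cytoskeleton genes and targets of YAP had it at 10 of 27, with Myh9, a non-muscle myosin, at 14.14, the focal adhesion gene Zyx at 8.94 and the actinin gene Actn1 at 8.19. These folds are modest beside those of the leading genes, and the median of the list was 6.92.

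Genes of Miz1, the Myc and Max network and its partners had Miz1 at 7 of 24, among them Mnt, a Max partner, at 10.43 and the acetyltransferase gene Ep300 at 9.68, and Zbtb4 had Miz1 at 7.45 without RNAPII. Glycolysis genes had it at 5 of 18, led by Gapdh at 18.62, the pyruvate kinase gene Pkm2 at 18.05 and the phosphofructokinase gene Pfkm at 11.92. Circadian clock genes had it at 4 of 15, led by Per2 at 11.17 and Bhlhe40 at 9.68. Hox genes had it at 3 of 8, with Hoxa9 at 11.17 and Hoxa3 at 5.96 among them, beside Hoxa6 without RNAPII.

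Other lists lay near the share of all RNAPII-positive genes. DNA repair genes had Miz1 at 8 of 37 (Parp1 at 23.09), immediate-early genes at 6 of 29 (Ier2 at 17.13, Klf10 at 7.26 and Jun at 6.7), cytosolic ribosomal proteins at 9 of 48 (Rpl22, Rpl4 at 38.19 and Rpl27 at 7.62) and genes of the RNAPII machinery at 10 of 59. The last group held Ercc2, the TFIID subunit gene Taf6 at 21.6 and Hexim1, an inhibitor of the elongation factor P-TEFb, at 13.76. Genes of cholesterol synthesis had it at 4 of 24 (Mvd at 22.23), and matrix and mesenchymal genes at 3 of 19 (Ddr2 at 14.15, Col6a2 at 6.7 and Loxl1 at 5.96).

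Vesicle traffic and autophagy genes had Miz1 at 8 of 43 RNAPII-positive members, close to the background share, and their folds fell into separate ranges. Vps28 at 272.6, Exoc2, a subunit of the exocyst that tethers secretory vesicles, at 170.6, Ambra1 at 168.3 and Vamp4 at 131.1 were among the highest of all genes. The autophagy gene Atg10 at 8.94, the Golgi SNARE gene Stx5a at 8.21, the autophagy receptor gene Sqstm1 at 7.45 and the vacuolar sorting gene Vps18 at 5.96 lay around the median of 7.45 over all 1703 genes. The list was drawn up with Miz1's reported targets known, so it is not independent of earlier findings on this protein.

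At the lower end, mitochondrial ribosomal protein genes had Miz1 at 5 of 47, translation factor and tRNA synthetase genes at 4 of 43 (median fold 74.5), ribosome assembly genes at 3 of 36, replication-dependent histone genes at 2 of 26, respiratory chain genes at 3 of 58 and genes of the COPII and COPI coats and the ER translocon at 1 of 28. Single members of these lists still had high folds, such as the tyrosyl-tRNA synthetase gene Yars at 204.8, Mrps15 at 157.2, the translation initiation factor gene Eif2b3 at 138.5, Mrps23 at 99.81, the complex I gene Ndufa5 at 82.64 and Wdr12, a ribosome assembly factor, at 58.1. The histone genes Hist1h4i and Hist1h4b had 19.37 and 6.7, and the coat gene Cope 5.21. The lists are small, and none of these shares was tested against another.

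**Figure D3:**
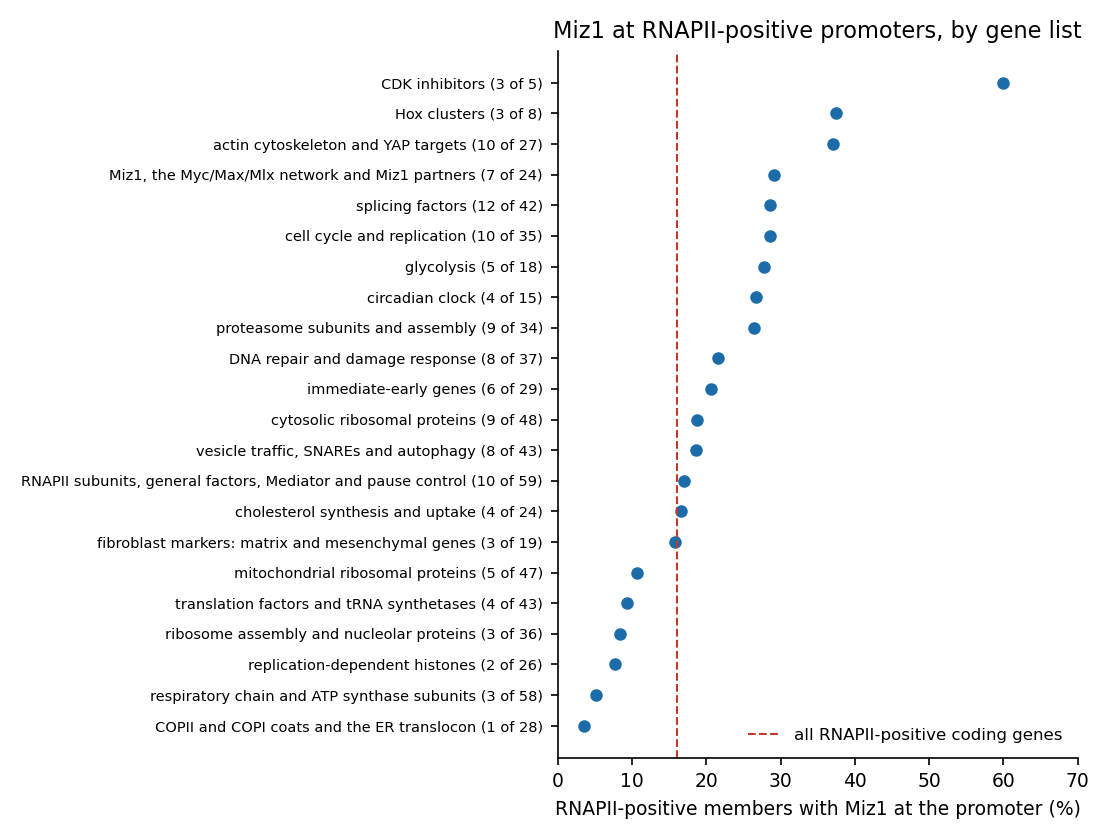
Share (%) of RNAPII-positive members with Miz1 at the promoter for the gene lists with at least 5 such members; the dashed line is the 16.1% of all RNAPII-positive coding genes. CDK inhibitors (3 of 5) lie highest and the coat and translocon genes (1 of 28) lowest.

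Gene bodies were under RNAPII peaks to a larger extent at genes with Miz1. Gene-body cover is the part of a gene, in percent, under RNAPII peaks beyond the first 1000 bp from its outermost coding start. It was taken over 9771 coding genes of at least 3000 bp with RNAPII at the promoter. The tail of a long promoter peak, or a peak at a start further inside the gene, thus counts as cover. Narrow RNAPII peaks under Miz1 at promoters, counted once per Miz1 peak, had a median length of 3541 bp, against 2616 bp for all narrow peaks. The part of such promoter peaks in the cover was not tested. By the narrow list the mean was 27.9% (SD 35.0, n = 1607 genes) with Miz1 and 20.0% (SD 31.0, n = 8164 genes) without, a difference of 7.88 percentage points, and the medians were 9.75% and 3.90%. By the broad list the means were 9.05% and 4.57%, a difference of 4.48, and both medians were 0. Genes are not replicates of a condition, and the SD over genes is larger than the difference.

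The difference lay at both ends of the range. Cover of at least 90% was found at 216 genes with Miz1 (13.4%) and 715 without (8.76%), and cover of at most 10% at 809 (50.3%) and 5161 (63.2%). Cover fell with gene length, from a mean of 53.8% with Miz1 and 43.5% without at 3000 to 10000 bp, through 33.2% and 20.4%, then 15.3% and 9.05%, to 5.36% and 3.31% over 100000 bp. The genes with Miz1 had the higher mean in all 4 length classes.

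RNAPII strength at the promoter moved with cover too. In the lowest quintile by promoter RNAPII fold the means were 10.3% with Miz1 and 9.84% without, a difference of 0.49, and in the highest quintile they were 51.5% and 39.7%, a difference of 11.8. In the quintiles between them the differences were 1.85, 6.58 and 4.50. When length and promoter fold were held together in 20 cells, the genes with Miz1 had the higher mean in 17 and the lower in 3, with differences from -6.09 to 15.8, and the difference weighted over the cells was 6.58 by the narrow list and 3.76 by the broad list. Cover did not follow the strength of Miz1, since the mean was 28.1%, 28.4%, 27.2%, 28.4% and 27.5% from the weakest to the strongest quintile of Miz1 genes.

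**Figure D4:**
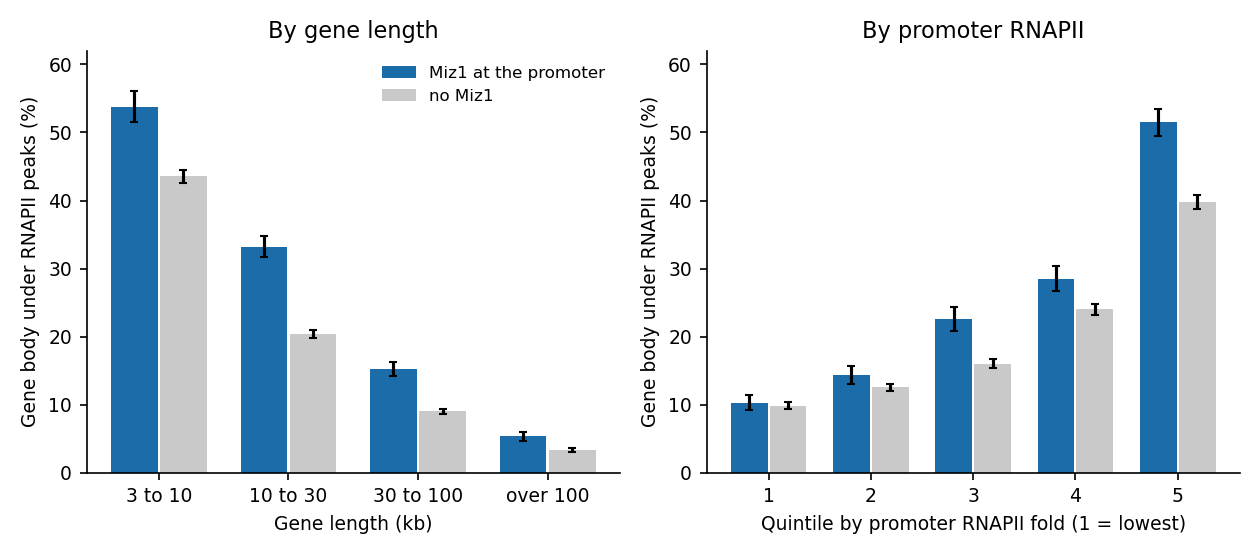
Mean gene-body cover by narrow RNAPII peaks (%) at RNAPII-positive genes with Miz1 at the promoter (blue) and without (grey), by gene length in kb and by quintile of promoter RNAPII fold; error bars are the standard error over genes. Genes with Miz1 are higher in each length class, and the gap is 0.49 percentage points in the lowest quintile and 11.8 in the highest.

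Single genes show both forms. Of the 6 genes of highest Miz1 fold with cover of at least 90%, Rpl22 was covered to 100% by narrow peaks and to 45.1% by broad peaks, and Psmd3 to 90.01% and 0%. The others were Hdgf, a growth factor that binds chromatin, with a Miz1 fold of 145.2, Rpl9, another protein of the large ribosomal subunit, with 139.7, the tRNA methyltransferase gene Trmt1 with 110.2, and Tob2, an antiproliferative gene, with 57.68. Narrow cover was 92.5% at Trmt1 and 100% at Hdgf, Rpl9 and Tob2. Some of this cover comes from long peaks that run past the gene, such as the narrow peak at Hdgf.

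At the other extreme, narrow RNAPII peaks hardly reached past the promoter at Tmbim4, with cover of 5.90%, Snrpb2 with 8.37%, Ercc2 with 1.55%, Palb2 with 1.56%, Dctn5 with 1.15% and Klhdc10 with 0%. Vamp4 and Ambra1 belong here as well, with 1.36% and 0.198%. At Cdkn1a cover was 37.9% and at Cdkn2b 100%. The promoter peaks of Cdkn1a and Tmbim4 sit at a start well inside the gene span and so count as cover. They make up all of the narrow cover at these genes, which thus does not show RNAPII past that start region. Ncl and Npm1, without Miz1, were both covered to 100%, as Rpl22 was.

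Within gene lists the same measure varied widely. Splicing genes with Miz1 (n = 12) had a median narrow cover of 100% and those without 69.5%. Cell cycle genes had 75.3% (n = 10 with Miz1) and 22.5%, and ribosomal protein genes 100% in both. The order was the reverse in other lists. Matrix and mesenchymal genes had 6.38% with Miz1 (n = 3) and 74.4% without, cholesterol genes 3.56% (n = 4) and 38.4%, and glycolysis genes 9.07% (n = 5) and 24.7%. Vesicle traffic and autophagy genes had 0.781% with Miz1 and 0.919% without. Over all genes these medians of cover were 9.75% and 3.90%. Promoter RNAPII differed within lists too, with median folds of 63.3 and 47.6 at splicing genes with and without Miz1. At matrix and mesenchymal genes these folds were 32.7 and 60. Myh9 shows how the RNAPII lists can part, since its body was covered to 90.6% by broad peaks and to 0% by narrow peaks, and its promoter had a broad fold of 55.02 and no narrow peak.

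The classes also differed in which other proteins were called at the same places. Myc peaks of the 0 min library lay over 92.5% of the Miz1 sites at RNAPII promoters, 78.9% of those at other RNAPII sites, 24.7% of those at RNAPII-free promoters and 16.6% of the distal sites. These Myc peaks covered 1.47% of the genome. Among genes, Myc was at 95.5% of those with Miz1 and RNAPII and 88.4% of those with RNAPII only, and at 34.6% of those with Miz1 only and 3.55% of those with neither. In this library, which held 33431447 tags, Myc was thus at most RNAPII-positive promoters whether or not Miz1 was called.

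Sites shared with the B cell Miz1 list made up 24.9% at RNAPII promoters, 6.77% at other RNAPII sites, 10.9% at RNAPII-free promoters and 6.70% at distal sites. The B cell peaks covered 0.0633% of the genome. Among genes, B cell Miz1 was at 31.1% of those with both Miz1 and RNAPII in fibroblasts, 6.31% of those with RNAPII only, 7.69% of those with Miz1 only and 1.02% of those with neither. The B cell list was called at a stricter p cutoff (1e-05) from 24237295 tags, so sites missing from it need not be free of Miz1 in B cells. Among the 8 distal sites of highest fold in fibroblasts, 7 were also in the B cell list and 2 had Myc at 0 min.

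Few RNAPII-free Miz1 sites were under RNAPII after OHT. Of the 320 RNAPII-free promoter sites, 12.8%, 19.4%, 9.69%, 8.75% and 8.44% were under RNAPII at 10, 20 and 30 min, 2 h and 4 h, and 73 were so at 1 or more of these times but 9 at all of them. Of the 4999 distal sites, 4.58%, 7.04%, 3.48%, 2.76% and 1.70% were, 440 at 1 or more times and 36 at all of them. The highest shares fall on the 20 min library, which held 36396286 tags and whose lists covered 4.61% of the genome against 2.84% to 3.69% in the other later libraries. Its part in those shares was not tested. At 4 h the lists covered 2.84% of the genome, more than the 1.70% of distal sites under them. Among coding genes, RNAPII at 4 h was at 11.5% of those with Miz1 only and at 1.79% of those with neither.

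**Figure D5:**
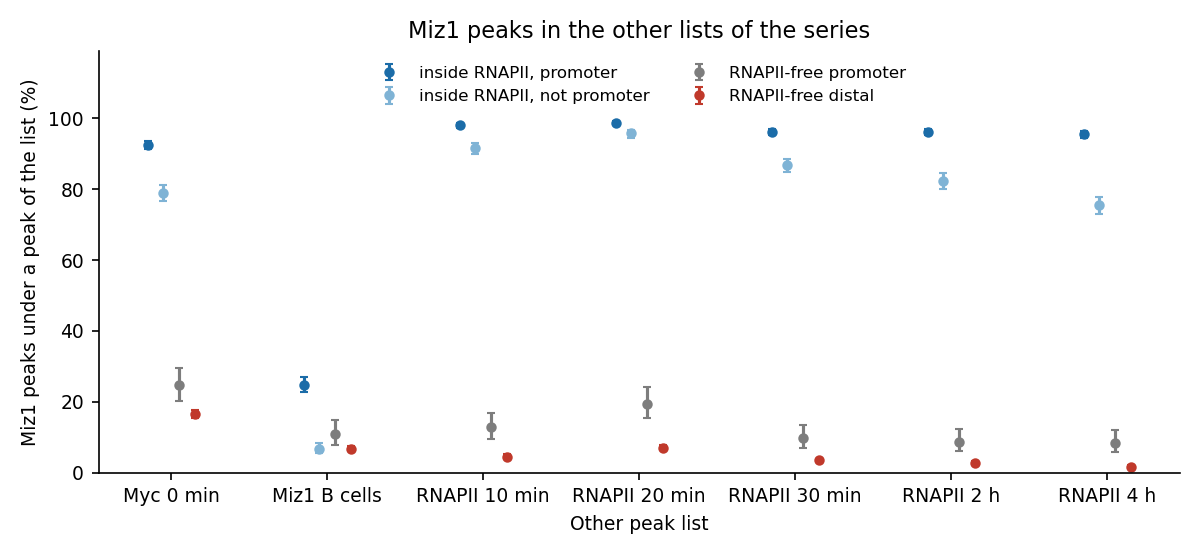
Share (%) of Miz1 fibroblast peaks of each class that lie under a peak of Myc at 0 min, Miz1 in B cells, or RNAPII at the 5 later times, with 95% Wilson intervals. Sites at RNAPII promoters lie under Myc in 92.5% of cases and distal sites in 16.6%, and RNAPII-free sites stay below 20% in all later RNAPII lists.

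Short words were counted on both strands in 200 bp windows centred on the Miz1 summits, and in flanking windows of the same size 1000 bp to either side. The word ATCG was in 35.0% of the windows at RNAPII promoters, in 24.96% of their flanks, in 29.5% of windows around all 45939 coding start sites and in 33.0% of those around start sites of RNAPII-positive genes without Miz1. Among the 100 RNAPII promoter sites of highest fold it was in 81, against 20% of their flanks. The strongest quintile held it in 165 of 350 sites, while the other quintiles held it in 110 to 114 of about as many.

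TCGA was in 71 and CTCGG in 66 of the same 100 windows, against 14.5% and 16% of their flanks and 17.7% and 37.6% of all coding start sites. The 6-base word ATCGAT was in 17 of the 100 and in none of their flanks, and in 0.509% of coding start sites. These 100 windows had a median GC content of 62.5% and 17 CpG pairs, and start sites of RNAPII-positive genes without Miz1 had 64% and 16. In the latter windows TCGA was found in 20.3%, CTCGG in 46.2% and ATCGAT in 0.402%, so CTCGG was the least set apart of these words. ATCG overlaps ATCGAT, and TCGA overlaps it as well. Over all 1753 RNAPII promoter sites TCGA was in 22.9%, ATCGAT in 2.17% and CTCGG in 36.3%, against 17.7%, 0.713% and 23.45% of their flanks. The CTCGG share lay below its 46.2% at start sites without Miz1. The words ATCG, TCGA and CTCGG were chosen after the summit sequences had been seen. Their counts in the 100 strongest sites are therefore not an independent result. At distal sites ATCG was in 15.3% of windows and 16.1% of flanks. At RNAPII-free promoters ATCG was in 19.7% of windows and 21.1% of flanks, and in 21 of the 100 strongest sites (flanks 20.5%). A separate word listed beforehand as a Miz1 core was no more frequent at summits than in flanks over all Miz1 sites (1.29% and 1.31%). The same held at RNAPII promoters (2.11% and 2.17%), and it was in 6 of the 100 strongest of these (flanks 2%).

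Away from promoters other words were frequent. The AP-1 word TGANTCA, bound by Fos and Jun proteins, was in 18.1% of windows at RNAPII sites outside promoters (flanks 6.57%), 15.0% at distal sites (5.93%), 8.44% at RNAPII-free promoters (4.22%) and 5.48% at RNAPII promoters (4.99%). The repeat GAGAGAGAG was in 13.4%, 14.4%, 20.9% and 8.79% of these classes in the same order, with flanks of 2.73%, 2.38%, 2.5% and 2.40%. Among the 100 strongest sites of each class it was in 36, 28, 35 and 0. The GC box GGGCGG was in 39.2% of RNAPII promoter sites (flanks 15.8%) and in 50.7% of start sites of RNAPII-positive genes without Miz1. The E-box CACGTG was in 5.70% (flanks 2.62%) and 6.41% of the same sets. These start sites had a median GC content of 64% and 16 CpG pairs, against 58.5% and 10 at the RNAPII promoter sites.

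A repeated sequence was frequent among strong distal sites. The word TGCACCAA with AATAGACA within 60 bp was found in 123 of the 4999 distal windows (2.46%), in 22 of the 100 distal sites of highest fold, in 4 RNAPII-free promoter windows and in 0 of the 2979 windows inside RNAPII. Across the genome 899 copies of TGCACCAA had the second word that near, and 226 of them (25.1%, 22.4 to 28.1) lay in a Miz1 peak, 10 (1.11%) under RNAPII and 41 (4.56%) under Miz1 in B cells. Of the other 63294 copies, 0.229% lay in a Miz1 peak. The word pair was chosen after the summit sequences had been seen, so these shares in Miz1 peaks are not an independent result. A pair of copies is printed from the plus strand, with TGCACCAA in capitals, extended where it overlaps its reverse complement, from chr15:49472943-49473033 (fold 37.02) and chr13:50964633-50964723 (fold 36.5), both outside annotated transcripts.
chromosome 15 copy: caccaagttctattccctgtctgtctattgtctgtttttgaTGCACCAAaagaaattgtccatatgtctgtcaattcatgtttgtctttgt
chromosome 13 copy: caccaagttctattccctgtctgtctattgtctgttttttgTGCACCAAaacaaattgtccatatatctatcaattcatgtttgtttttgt
The 127 Miz1 peaks with both words lay on 20 chromosomes, with the summit at a median of 16 bp from TGCACCAA and within 20 bp in 76 of them. The 123 distal ones had a median fold of 12.66, against 5.29 at the other distal sites. None of the 127 had Myc at 0 min and 25 had Miz1 in B cells. How uniquely reads map to these copies was not tested.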

How the data were processed

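ChIP-seq peak lists of Miz1 and RNAPII from 1 fibroblast line were used, 1 library per group, with the Myc, later RNAPII and B cell Miz1 lists for comparison. The submitters' processing notes name BWA 0.6.2-r126, MACS2 2.0.9 and the build mm9. Narrow RNAPII and Myc peaks came from MACS 1.4.2 and the Miz1 and broad RNAPII peaks from MACS 2.0.9, each from 1 library against a control, per the file headers. The deposited lists give tag counts per peak, a score made from log10 p and a false discovery rate in percent (MACS 1.4.2), or a pileup signal at the summit, not scaled to depth, and −log10 p and q values (MACS 2.0.9). Both give the authors' fold enrichment, a ratio to the local background of the control, which was used only to rank or describe peaks within a list. The depths limit the weakest sites that could pass, and how they differ from the Miz1 library is given with the results.

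Peaks were overlapped by at least 1 bp, and TSSs, exons and introns came from GENCODE vM1 on NCBIM37, the same assembly as mm9. A coding gene (by symbol) had a factor when a peak overlapped 1000 bp to either side of the TSS of any of its coding transcripts, and a gene of several TSSs took its strongest peak. Shares carry 95% Wilson intervals, and the code for overlaps and covered bases was checked on simulated intervals. Python 3.11.15, numpy 2.4.6, pandas 2.3.3, scipy 1.17.1, pysam 0.24.0 and matplotlib 3.10.9 were used. The members and the 26 gene lists (845 symbols, 6 not matched) were chosen with earlier results of these data known, and the short words in capitals at promoters, the repeated word pair and CCCTCCCC were chosen after the summit sequences had been seen. Genes were named by Miz1 fold (12 with RNAPII, 10 without, the top 3 of each list, 6 at each extreme of cover), by RNAPII fold without Miz1 (8), or because they are always shown (Vamp4, Ambra1, Cdkn1a, Cdkn2b, Zbtb17, Ncl and Npm1), and the 8 distal sites of highest fold were taken. Sites and genes printed beyond that rule (the 4 RNAPII sites outside promoters, the RNAPII-free peaks at Pik3r6 and 9130213A22Rik, Atg10, Stx5a, Sqstm1, Vps18, the repeat copies, Zbtb4 and the single members with cover values) were chosen after their values were seen. Alternatives changed the Miz1 cutoff, the RNAPII list, the overlap, the promoter window and the gene-body rule.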

Additional observations from a re-analysis of the deposited data

How the results depend on the processing

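The 7 results tested under other settings are the shares of Miz1 peaks inside RNAPII (35.9%), at RNAPII-free promoters (3.86%) and at RNAPII-free distal sites (60.2%), the share of RNAPII-positive (16.1%) and RNAPII-free (1.12%) genes with Miz1, and the difference in gene-body cover by narrow (7.88 points) and broad (4.48 points) peaks. With −log10 p of at least 5 for Miz1, sites inside RNAPII were 47.2%, distal sites 48.8%, the gene shares 11.7% and 0.627%, and the cover differences 7.82 and 4.15. With Miz1 peaks above the median fold they were 48.7%, 47.2%, 10.8%, 0.541%, 7.08 and 3.77, and sites inside RNAPII then outnumbered distal ones. With q at or below 0.01, an alternative chosen after seeing the data, they were 47.6%, 48.4%, 11.4%, 0.61%, 7.72 and 4.25. With the broad RNAPII list alone, sites inside RNAPII were 26.2%, RNAPII-free promoters 6.89%, distal sites 66.9% and RNAPII-free genes with Miz1 1.53%. With RNAPII peaks above the median fold, the 5 shares were 27.7%, 5.76%, 66.6%, 16.8% and 1.95%. With the whole Miz1 peak inside RNAPII, 34.2% were inside and 4.58% at RNAPII-free promoters. A promoter window of 500 bp gave RNAPII-free promoters 2.53%, distal sites 61.6%, genes 13.54% and 0.879%, and cover differences 7.19 and 4.31, and one of 2000 bp gave 6.65%, 57.4%, 18.4%, 1.65%, 8.51 and 4.55. Genes of at least 10000 bp had cover differences of 8.07 and 2.8, and leaving out the last 1000 bp of each gene gave 7.84 and 4.66. Without chromosome 15, also chosen after seeing the data, the differences were 7.7 and 4.36. The cover differences stayed positive in all of these settings, and the broad one fell most with genes of at least 10000 bp. The narrow list alone and the rule that the summit lie inside RNAPII moved no share beyond its interval. For settings that use fewer peaks, the lower gene shares follow from the smaller lists, and the cause of the other moves was not tested. No paired analysis was possible because each group held 1 library. The Miz1 library had 10164509 tags, so weak sites without a call may be bound.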

Other observations

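Miz1 peaks were denser on chromosome 15 than on any other chromosome in this library. It held 788 Miz1 peaks, or 7.61 per Mb, while the others ranged from 1.30 per Mb on the X to 6.11 on chromosome 19. For RNAPII-free distal sites the density was 5.26 per Mb against 0.924 to 3.72, and for those with q at or below 0.01 it was 1.401 per Mb. RNAPII broad peaks lay at 10.4 per Mb on chromosome 15, below the 13.9 of chromosome 11 and the 11.6 of chromosome 19. Copy number and the input signal on chromosome 15 were not analysed here.

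The word CCCTCCCC was more frequent at Miz1 summits than 1000 bp away when all sites of a class were counted, but not among the strongest at RNAPII promoters and distal sites. It was in 26.1% of windows at RNAPII promoters (flanks 6.10%), 23.3% at other RNAPII sites (5.59%), 16.6% at RNAPII-free promoters (4.22%) and 10.6% at distal sites (2.35%), and in 8.39% of windows around coding start sites. Among the 100 sites of highest fold it was in 2 at RNAPII promoters (flanks 4.5%), 28 at other RNAPII sites (4%), 22 at RNAPII-free promoters (4%) and 1 at distal sites (3%). The word was chosen after the summit sequences had been seen.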
